A study of Mus musculus with 4 samples.

Results

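The small leucine-rich proteoglycans are a family of secreted matrix proteins, and 9 of their genes, *Dcn*, *Bgn*, *Fmod*, *Lum*, *Prelp*, *Epyc*, *Ogn*, *Aspn* and *Omd*, are described in rib chondrocytes of 4 mouse genotypes. The genes were chosen by name, and all probe sets of the array that name one of them were taken. This gave 20 probe sets for the 9 genes, of 45037 probe sets and 18193 genes on the array. No further probe set named a member together with another gene.

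All mice had the C57BL6/J background and were 5 days old. Wild type mice carried intact *Xbp1* and *Matn3*, and XBP1 null mice lacked exon 2 of *Xbp1* in cells in which Cre recombinase had been made from the *Col2a1* promoter. *Matn3* mutant mice carried the V194D mutation of matrilin-3, a cartilage matrix protein, as a knock-in with intact *Xbp1*, and double mutant mice carried both changes. The *Col2a1* promoter is active in chondrocytes, so cells of other kinds in the preparation could keep *Xbp1* intact, and the mutation served as a model of a human epiphyseal dysplasia in which mutant matrilin-3 aggregates in the endoplasmic reticulum. Cells were released from the costochondral cartilage of pooled litters with collagenase, RNA of 3 extractions was pooled for each genotype, and 1 array was hybridized per genotype. There was thus no replicate of any genotype, no difference between single arrays carries a p-value, and signals and folds describe these pools. Where values stand in a row of 4, their order is wild type, XBP1 null, *Matn3* mutant, double mutant.

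Each of these proteins has a small core of leucine-rich repeats, which binds collagen, and most carry chondroitin, dermatan or keratan sulphate chains. They control the width and spacing of collagen fibrils, and several bind growth factors of the TGF-beta and BMP families. In cartilage, decorin, biglycan, fibromodulin, lumican and epiphycan are known as matrix components made by chondrocytes, whereas asporin and osteoglycin are also well known from the perichondrium, periosteum, tendon and other fibrous tissue.

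On the mouse assembly GRCm38.p6, 8 of the 9 genes lie near other genes of the family. *Optc*, *Prelp* and *Fmod* lie within 151 kb of chromosome 1. *Dcn*, *Lum*, *Kera* and *Epyc* follow each other within 202 kb of chromosome 10. *Ecm2*, *Aspn*, *Omd* and *Ogn* follow each other within 120 kb of chromosome 13 (49504810 to 49624501), inside the span of *Cenpp*, and *Bgn* lies alone on the X chromosome (73483601 to 73495936).

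The 250 bases before the annotated starts of *Aspn*, *Omd* and *Ogn* are shown because these neighbours on chromosome 13 include the members with the largest span and with the smallest. They were read from RefSeq on GRCm38.p6, 5′ to 3′ along the plus strand, at chr13:49544193-49544442, chr13:49582212-49582461 and chr13:49607765-49608014, and capitals mark matches to 4 short motifs.
Aspn: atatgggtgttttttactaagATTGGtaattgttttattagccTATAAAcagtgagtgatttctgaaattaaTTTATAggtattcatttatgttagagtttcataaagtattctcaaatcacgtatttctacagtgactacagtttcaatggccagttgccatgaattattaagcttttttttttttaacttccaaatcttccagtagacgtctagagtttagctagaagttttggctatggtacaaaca
Omd: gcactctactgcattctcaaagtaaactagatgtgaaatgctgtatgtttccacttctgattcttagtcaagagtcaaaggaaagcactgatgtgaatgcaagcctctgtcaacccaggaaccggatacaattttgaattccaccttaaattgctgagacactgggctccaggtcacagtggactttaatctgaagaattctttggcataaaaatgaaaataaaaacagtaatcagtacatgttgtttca
Ogn: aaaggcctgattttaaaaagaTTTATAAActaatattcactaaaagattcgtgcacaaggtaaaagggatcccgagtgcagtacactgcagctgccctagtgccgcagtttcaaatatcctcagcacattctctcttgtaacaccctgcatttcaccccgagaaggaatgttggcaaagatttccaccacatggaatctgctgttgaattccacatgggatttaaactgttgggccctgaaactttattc
The motifs, searched on both strands, were the TATA box letters TATAAA, the core TGACGTG of a reported XBP1 site, and the pieces CCAAT at one end and CCACG at the other end of the endoplasmic reticulum stress element. Of 32851 promoters of the same length, 12.4% held TATAAA and 1.65% held the XBP1 core, and 33.8% and 28.3% held the pieces CCAAT at one end or CCACG at the other. The *Aspn* sequence held TATAAA on each strand, with matches that began 207 and 178 bases before the gene, and CCAAT on the minus strand at 229 bases. The *Ogn* sequence held TATAAA on each strand in 1 overlapping run, at 227 and 229 bases, and the *Omd* sequence held none of the 4 motifs. Among the other members with a promoter in the same table, *Epyc* held CCACG before the first of its annotated starts, *Prelp* held CCAAT before a start that lies inside the gene, and *Bgn* and *Fmod* held none. *Dcn* and *Lum* were not searched. GC content was 30.0% for *Aspn*, 38.4% for *Omd*, 42.0% for *Ogn* and 64.4% for *Bgn*, beside a median of 52.4% over all promoters. A match of letters is a description of the sequence and does not show that a factor binds there.

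The arrays had nearly equal medians, of 43.8 each, and the log2 signals of any pair of arrays correlated at 0.956 to 0.974 over the probe sets, which are no replicates of a genotype. *Xbp1* had signals of 8183, 7877, 11403 and 9548 on the probe set with its highest mean. The place of this probe set relative to exon 2 was not analysed here, so the value does not check the deletion. Chondrocyte markers were high in all 4 pools: the summed signal of 15 such genes was 141661, 152958, 158034 and 167188. None of the 15 was under a signal of 1. *Matn1* of this list had 2622, 2334, 1494 and 1533, which is 1.76-fold lower in *Matn3* mutant relative to wild type.

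Each gene was represented by its probe set with the highest mean log2 signal, called its main probe set here. On these, the members stood between percentile 94.3 and percentile 100 of all signals of an array, with signals of 1929 to 23102. The main probe set of *Fmod* had the highest signal of all probe sets on the wild type and XBP1 null arrays, where the maximum was 18520 and 20751. Whether such signals were near saturation, which would shrink differences, was not tested.

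**Figure D1:**
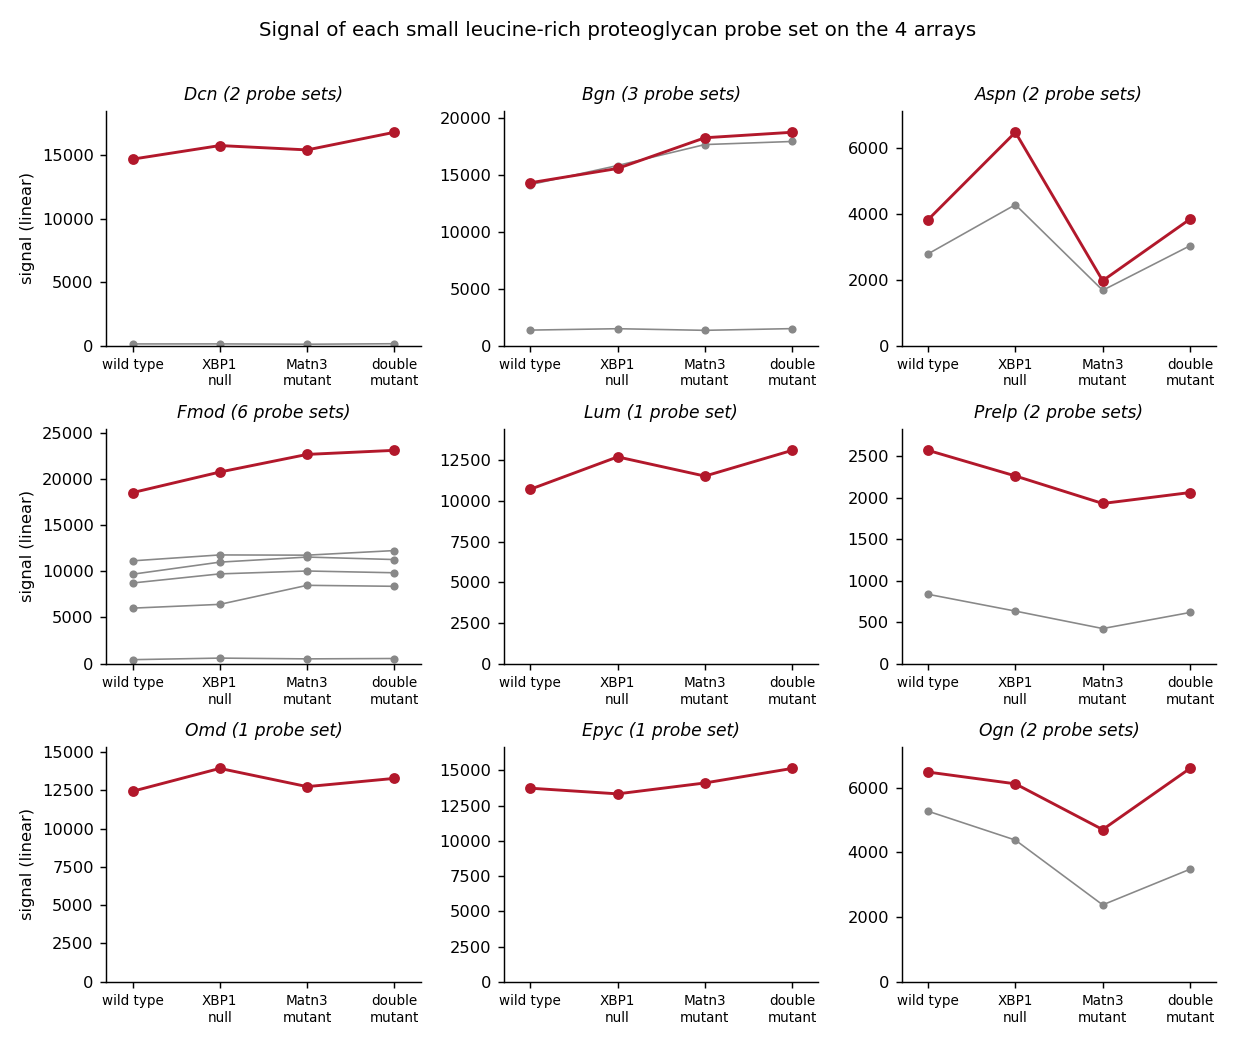
Linear signal (vertical axis, from 0) of every probe set of the 9 genes on each of the 4 arrays (horizontal axis, by genotype); red marks the main probe set of a gene and grey its other probe sets, and each point is 1 array. *Aspn* spans 1972 to 6482, whereas the main probe sets of the other members differ by 1.12-fold to 1.40-fold between their lowest and highest array.

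*Aspn* was the one member whose main probe set differed by over 1.5-fold between any of the arrays compared. *Aspn* encodes asporin, a protein of class I that binds collagen and inhibits TGF-beta. Its signals were 3825, 6482, 1972 and 3843, a span of 3.29-fold. The *Matn3* mutant pool was the lowest and the XBP1 null pool the highest, and the wild type and double mutant pools were nearly equal. *Aspn* was therefore 1.94-fold lower in *Matn3* mutant relative to wild type chondrocytes, 1.69-fold higher in XBP1 null relative to wild type, 1.95-fold higher in the double mutant relative to the *Matn3* mutant and 1.69-fold lower in the double mutant relative to XBP1 null cartilage.

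The second probe set of *Aspn* had signals of 2787, 4282, 1680 and 3034. It placed the arrays in the same order as the main one, with differences of 1.66-fold lower, 1.54-fold higher, 1.81-fold higher and 1.41-fold lower in the comparisons given above, the last of which is under 1.5-fold. Its suffix marks probes that may also detect other transcripts.

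Set among the 1431 genes whose mean log2 signal was at or above that of *Prelp*, the member with the lowest mean, *Aspn* stood near the edge in each comparison. In *Matn3* mutant relative to wild type chondrocytes 13 of these genes were lower by more, and in XBP1 null relative to wild type 93 were higher by more. In the double mutant, 9 were higher by more relative to the *Matn3* mutant and 19 were lower by more relative to XBP1 null cartilage. These are ranks of single differences and have no error.

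Over all 9 members, 1 was over 1.5-fold lower and 0 were higher by that much in *Matn3* mutant relative to wild type chondrocytes, where 19.3% of all genes were lower and 21.2% higher. In XBP1 null relative to wild type, 1 was higher and 0 lower, beside 23.3% and 11.5% of all genes. In the double mutant relative to the *Matn3* mutant, 1 was higher and 0 lower, beside 17.4% and 9.03% of all genes, and relative to XBP1 null cartilage 1 was lower and 0 higher, beside 16.9% and 16.6%. In each comparison the 1 member was *Aspn*.

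Dim genes differ by more between arrays than bright ones, and the members are bright. Among the 1431 genes at least as bright as *Prelp*, 15.7% differed by over 1.5-fold in either direction in *Matn3* mutant relative to wild type, 13.2% in XBP1 null relative to wild type, 4.82% in the double mutant relative to the *Matn3* mutant and 5.03% in the double mutant relative to XBP1 null cartilage. With 9 members, a count of 1 is close to what these shares give. The median log2 difference of the members was 0.04, 0.12, 0.10 and 0.09 in the same comparisons, beside 0.00, 0.09, 0.15 and 0.00 over all genes.

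**Figure D2:**
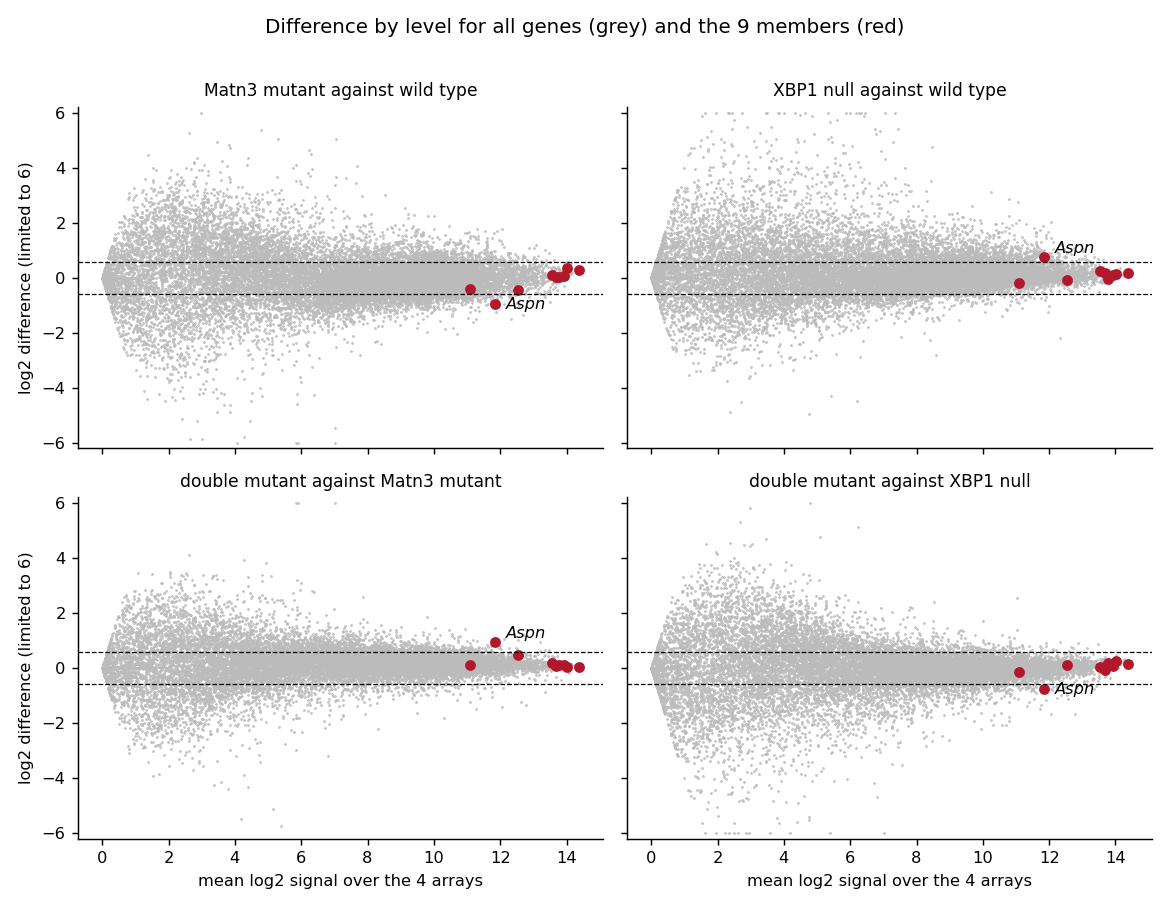
Log2 difference (vertical axis, drawn no further than 6 either way) against the mean log2 signal over the 4 arrays (horizontal axis) for all 18193 genes in grey and the 9 members in red, in the 4 comparisons; dashed lines mark 1.5-fold. The members sit at the bright end, and *Aspn* is the one outside the dashed lines in each panel.

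*Dcn* and *Bgn*, the other members of class I, encode decorin and biglycan, which carry chondroitin or dermatan sulphate chains. The 4 arrays gave *Dcn* signals of 14711, 15784, 15440 and 16833. These values lie within 1.14-fold of each other, with wild type the lowest and the double mutant the highest. The second probe set of *Dcn* had 132, 134, 109 and 148, with the *Matn3* mutant the lowest.

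For *Bgn* the signals were 14310, 15568, 18266 and 18749. Both arrays with the mutation were above both arrays without it, with a difference of 1.28-fold on intact *Xbp1* and 1.20-fold on the XBP1 null background, or 0.13 and 0.06 on the log2 scale after quantile normalization in place of 0.35 and 0.27. A second probe set of *Bgn* had 14144, 15826, 17669 and 17939 and kept this order, whereas the third had 1362, 1484, 1342 and 1492 and did not. *Bgn* lies on the X chromosome, and the sex of the pools differed: the Y-linked gene *Eif2s3y* had signals of 484, 665, 0.0320 and 855, and *Xist*, the RNA that coats the inactive X, had 7393, 5262, 9718 and 4101. *Uty*, also Y-linked, had 135, 233, 0.904 and 356, so that the *Matn3* mutant pool was the one nearly without Y-linked signal. The other probe sets of *Xist* had 3581, 1333, 3182 and 443, and 1045, 737, 1783 and 175. *Xist* was lowest on each probe set in the double mutant pool, where the signals given for *Eif2s3y* and *Uty* were highest. Comparisons without the *Matn3* mutant array, such as double mutant relative to XBP1 null, may therefore also carry a difference in sex. Sex and genotype cannot be told apart in comparisons with the *Matn3* mutant array, including those of *Aspn*, *Ogn* and *Prelp*. The part of sex in the values of *Bgn* and of these members was not tested.

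Among members of class II, *Fmod* encodes fibromodulin, which carries keratan sulphate chains and binds fibrillar collagen. Its main probe set had 18520, 20751, 22661 and 23102, so that the mutant was 1.22-fold higher than wild type. The wild type array was the lowest for all 6 probe sets of *Fmod*. In *Matn3* mutant relative to wild type chondrocytes the 6 probe sets were 1.06-fold to 1.41-fold higher, the latter on a probe set with signals of 6012, 6422, 8483 and 8377. After quantile normalization the main probe set was at -0.05 on the log2 scale in that comparison, in place of 0.29.

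*Lum* encodes lumican, another keratan sulphate proteoglycan, and had signals of 10714, 12705, 11524 and 13107. Both arrays without XBP1 were above both arrays with it, by 1.19-fold on wild type and 1.14-fold on *Matn3* mutant background. *Omd*, which encodes osteomodulin, known from bone, had 12444, 13941, 12750 and 13289, a span of 1.12-fold that was the smallest of the main probe sets.

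*Prelp* encodes a protein whose basic end binds heparan sulphate and which links collagen to basement membranes. Its main probe set had signals of 2569, 2260, 1929 and 2061. The other probe set had 835, 633, 423 and 616 and placed the arrays in the same order, with the *Matn3* mutant the lowest and wild type the highest. The sizes differed, since *Prelp* was 1.33-fold lower in the *Matn3* mutant relative to wild type on the main probe set and 1.98-fold lower on the other.

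*Epyc* and *Ogn* belong to class III. *Epyc* encodes epiphycan, a proteoglycan of the growth plate, and had signals of 13733, 13332, 14105 and 15138, within 1.14-fold.

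*Ogn* encodes osteoglycin, also called mimecan. Its main probe set had signals of 6489, 6125, 4709 and 6603. The *Matn3* mutant stood alone as the lowest, 1.38-fold lower than wild type, and the double mutant was 1.40-fold higher than the *Matn3* mutant. On the other probe set the signals were 5277, 4384, 2379 and 3482, with 2.22-fold lower in the *Matn3* mutant relative to wild type and 1.46-fold higher in the double mutant relative to the *Matn3* mutant. Both probe sets had the *Matn3* mutant as the lowest array, but the double mutant was the highest on one and below wild type on the other.

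**Figure D3:**
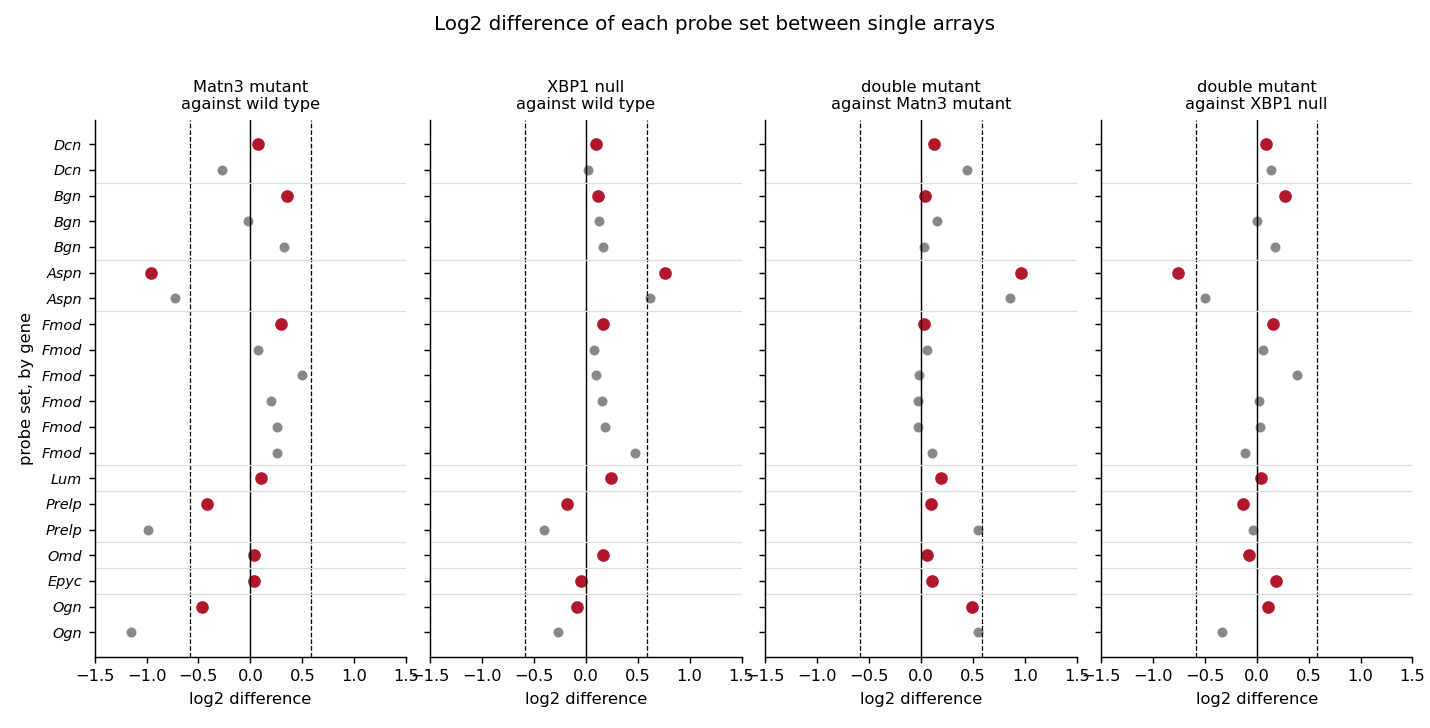
Log2 difference (horizontal axis) of the 20 probe sets, in rows by gene, in the 4 comparisons of single arrays; red marks the main probe set of a gene, grey its other probe sets, and dashed lines 1.5-fold. Over 1.5-fold lower in *Matn3* mutant relative to wild type are 4 probe sets, both of *Aspn* and the other ones of *Prelp* and *Ogn*, and none is higher by that much.

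Over the 20 probe sets, 4 were over 1.5-fold lower and 0 higher in *Matn3* mutant relative to wild type, where 20.8% of all probe sets were lower and 22% higher, so that the 4 are near the share of all probe sets. In XBP1 null relative to wild type 2 were higher and 0 lower, beside 21.6% and 17.5% of all probe sets. In the double mutant 2 were higher and 0 lower relative to the *Matn3* mutant, beside 15.8% and 15.4%, and 1 was lower and 0 higher relative to XBP1 null cartilage, beside 19.5% and 18.1%. The members thus divided in their order of genotypes. On the main probe sets the *Matn3* mutant was the lowest array for 3 members, *Aspn*, *Prelp* and *Ogn*, and wild type was the lowest for 5, *Dcn*, *Bgn*, *Fmod*, *Lum* and *Omd*. The double mutant was the highest for 6 and the lowest for 0. All 9 members were higher in the double mutant relative to the *Matn3* mutant, but 6 of these differences, in *Bgn*, *Fmod*, *Omd*, *Prelp*, *Epyc* and *Dcn*, were below the median difference of all genes in that comparison, 0.15 on the log2 scale. These orders depend on the scaling of the arrays. After quantile normalization, which makes the brightest signals of the arrays equal, 3 of the 9 members were above 0 in the double mutant relative to the *Matn3* mutant, wild type was the lowest array for 2, *Bgn* and *Lum*, and the double mutant was the lowest for 3 and the highest for 0. The *Matn3* mutant stayed the lowest for *Aspn* and *Ogn*.

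On the main probe sets *Dcn* and *Lum*, neighbours on chromosome 10, shared one order of the arrays. Wild type was the lowest, then came the *Matn3* mutant, XBP1 null and the double mutant. *Epyc* of the same group had another order. *Aspn*, *Omd* and *Ogn* had an order each, and *Prelp* and *Fmod* differed in theirs. *Fmod* had the same order as *Bgn*, which lies on the X chromosome. Within the group on chromosome 13, the log2 difference in *Matn3* mutant relative to wild type was 0.00 for *Ecm2*, -0.96 for *Aspn*, 0.04 for *Omd* and -0.46 for *Ogn*. *Omd*, which lies between *Aspn* and *Ogn*, differed little in any comparison. On chromosome 10, *Dcn*, *Lum* and *Epyc* had 0.07, 0.11 and 0.04 in that comparison, whereas *Kera* between *Lum* and *Epyc* had -1.02, with signals of 204 and 101 on these arrays. On chromosome 1, *Prelp* had -0.41 and *Fmod* 0.29.

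In limma, an effect of the mutation and an effect of XBP1 loss were fitted as a sum to the 4 arrays. The spread rests on 1 residual degree of freedom, and any interaction of the genotypes counts as spread. The effect on the main probe set of *Aspn* was -0.86 on the log2 scale for the mutation (standard error 0.119, unadjusted p = 0.0174, adjusted p = 0.635) and 0.86 for XBP1 loss (standard error 0.119, unadjusted p = 0.0172, adjusted p = 0.819). On its other probe set the effects were -0.61 (standard error 0.123) and 0.74 (standard error 0.123). No probe set of a member passed an adjusted p of 0.05 by limma for either effect. Over all 45037 probe sets 0% passed for the mutation and 0% for XBP1 loss, although 3381 and 2052 had an unadjusted p under 0.05. These included 2 member probe sets for each effect, both of *Aspn*, a count that for the mutation changed with the setting.

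For the other main probe sets the effect of the mutation lay between -0.27 in *Prelp* (standard error 0.132) and 0.31 in *Bgn* (standard error 0.141), and the effect of XBP1 loss between -0.04 in *Prelp* and 0.22 in *Lum* (standard error 0.128). The standard error of the main probe set of *Ogn*, 0.225, was larger than its effects of -0.18 and 0.20. The effect of the mutation on *Ogn* was -0.46 with intact *Xbp1* and 0.11 on the XBP1 null background, a difference that could not be tested. For *Aspn* the effect of the mutation was -0.96 with intact *Xbp1* and -0.75 on the XBP1 null background.

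**Figure D4:**
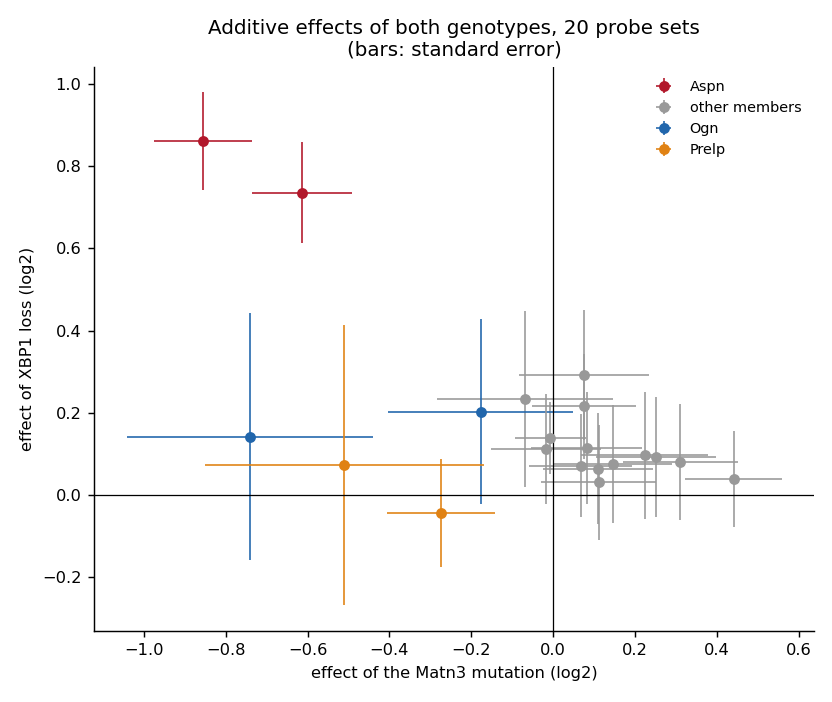
Effect of the *Matn3* mutation (horizontal axis) and of XBP1 loss (vertical axis), both in log2, for the 20 probe sets in the additive fit of the 4 arrays; bars are standard errors from limma, and blue marks *Ogn*, orange *Prelp* and grey the rest. Both probe sets of *Aspn* (red) lie at upper left, with effects of -0.86 and 0.86 and of -0.61 and 0.74, and no other member has an effect of XBP1 loss over 0.30.

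Over the 4 arrays, the genes whose centred log2 signals were nearest to those of *Aspn*, among 9096 genes, were *Tnc* at a distance of 0.15 and *Ptn* at 0.18. *Tnc* encodes the matrix glycoprotein tenascin C and had signals of 1916, 3396, 1027 and 1770. *Ptn* encodes the growth factor pleiotrophin and had 1967, 3176, 1113 and 1852. The nearest other member was *Ogn* at 0.96, which ranked 2016 among these genes. This likeness is over 4 points and was given only for *Aspn*, the one member with a span over 1.5-fold.

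Markers of perichondrium, fibroblasts and osteoblasts were in their sums, like *Aspn*, lowest in the *Matn3* mutant and highest in the XBP1 null pool. This was not particular to these lists, since the erythroid sum given below had the same lowest and highest pool. The summed signal of 15 markers of perichondrium and fibroblasts was 45615, 68022, 37551 and 54401, and that of 7 osteoblast markers was 5019, 7893, 2661 and 5297. *Col1a1*, which is in both lists, made 88.7% to 93.8% of the osteoblast sums and 6.39% to 10.3% of the others. Without it the 6 osteoblast markers left had 427, 891, 263 and 328, so that the double mutant was below wild type, and the 14 left of the other list had 41024, 61021, 35153 and 49431. Most of the perichondrial and fibroblast sum came from *Col1a2*, *Col3a1* and *Postn*. *Col3a1* had 10447, 16840, 7740 and 12142, and *Postn* 8640, 13191, 5852 and 11407. *Col1a2* had another order, with 12116, 14611, 14466 and 15744, lowest in wild type and highest in the double mutant. Of the 7 osteoblast markers, 4 were over 1.5-fold lower and 1 higher in *Matn3* mutant relative to wild type, 6 were higher and 0 lower in XBP1 null relative to wild type, 2 were higher and 1 lower in the double mutant relative to the *Matn3* mutant, and 5 were lower and 0 higher relative to XBP1 null cartilage. Of the perichondrial and fibroblast list, 5 genes were over 1.5-fold lower and 1 higher in *Matn3* mutant relative to wild type, 11 were higher and 1 lower in XBP1 null relative to wild type, 9 were higher and 0 lower in the double mutant relative to the *Matn3* mutant, and 8 were lower and 0 higher relative to XBP1 null cartilage. Examples in *Matn3* mutant relative to wild type are *Thy1*, a surface protein of fibroblasts, at 4.10-fold lower, *Sfrp2*, a WNT antagonist, at 3.96-fold lower and *Dpt*, which encodes dermatopontin, at 2.24-fold higher. *Clec3b* was under a signal of 1 in wild type and *Matn3* mutant and *Pi16* in *Matn3* mutant and double mutant chondrocytes. *Mepe* of the osteoblast list was under 1 in all 4 pools. Beside these counts and those of the lists below, 21.2% of all genes were higher and 19.3% lower in *Matn3* mutant relative to wild type. In XBP1 null relative to wild type the shares were 23.3% and 11.5%. In the double mutant they were 17.4% and 9.03% relative to the *Matn3* mutant, and 16.6% and 16.9% relative to XBP1 null cartilage.

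In bulk RNA, fewer cells of a type and less RNA per cell cannot be told apart, and the part of these cells in the values of *Aspn*, *Ogn* and *Prelp* was not tested. The 7 tendon markers had a summed signal of 32615, 40989, 35984 and 42707. Most of it came from *Col1a2*, with 12116, 14611, 14466 and 15744, and *Egr1*, with 14471, 16221, 17500 and 18836. In the *Matn3* mutant relative to wild type 3 of the 7 were over 1.5-fold lower and 0 higher, with *Scx* 2.13-fold and *Tnmd* 1.58-fold lower. In XBP1 null relative to wild type 2 were higher and 0 lower. The 14 skeletal muscle markers had 3420, 2911, 2177 and 3017, of which *Tnnt3* alone had 2780, 1906, 1829 and 2406. Of these 14, 9 were over 1.5-fold higher and 0 lower in XBP1 null relative to wild type. In *Matn3* mutant relative to wild type 2 of them were higher and 7 lower. The 11 endothelial markers had 270, 5572, 672 and 1156, with *Pecam1* under 1 in all pools but XBP1 null. Leukocyte (10 genes), erythroid (4) and adipocyte (6) markers were also highest in the XBP1 null pool, with summed signals of 851, 210.0 and 5755, beside 610.0, 127 and 958 in wild type. The erythroid sum was lowest in the *Matn3* mutant, at 23.6, and was 34.5 in the double mutant. Hypertrophic markers (8 genes) ranged in their sum from 5222 in the *Matn3* mutant to 6123 in the double mutant. *Col10a1* of this list had 831, 1370, 250 and 223, with the double mutant the lowest. In *Matn3* mutant relative to wild type, 4 of the hypertrophic markers were lower and 2 higher, with *Col10a1* 3.32-fold lower. In the double mutant relative to XBP1 null cartilage 3 were higher and 3 lower, with *Col10a1* 6.15-fold lower.

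**Figure D5:**
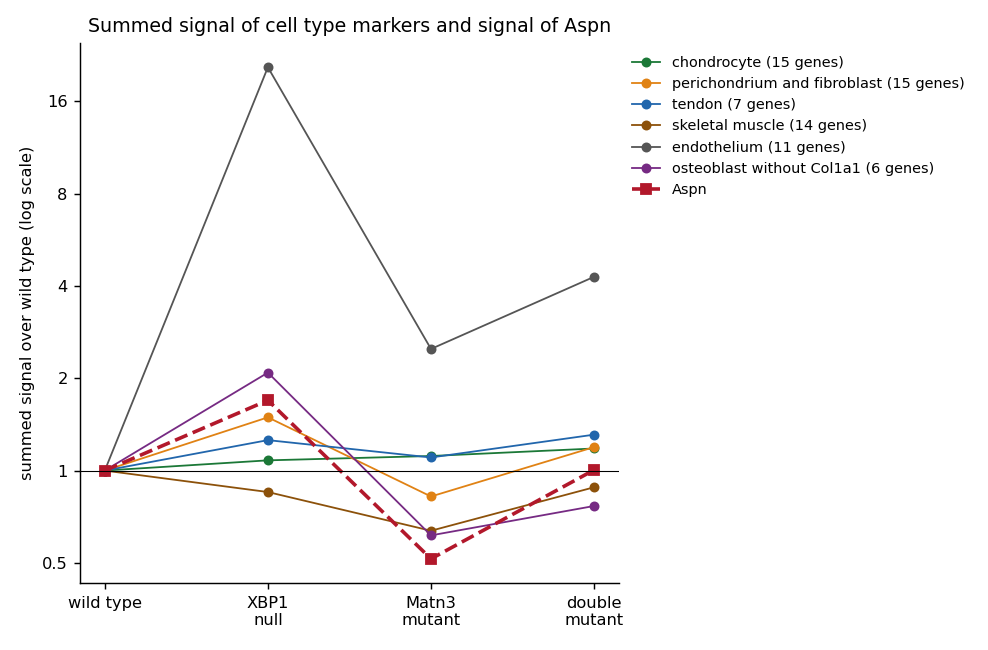
Summed signal of 6 lists of cell type markers, that of osteoblasts without *Col1a1*, and the signal of *Aspn*, each divided by its wild type value (vertical axis, log scale), on the 4 arrays (horizontal axis). *Aspn*, the perichondrial markers and the osteoblast markers are highest in XBP1 null and lowest in *Matn3* mutant cartilage. In the double mutant, however, the osteoblast markers are at 0.767 of wild type and the perichondrial ones at 1.19. The sum of the chondrocyte markers stays within 1.18-fold of wild type throughout, although *Matn1* of that list was 1.76-fold lower in the *Matn3* mutant. The tendon sum is mostly *Col1a2* and *Egr1*, the perichondrial sum mostly *Col1a2*, *Col3a1* and *Postn*, and the muscle sum mostly *Tnnt3*.

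Of the other genes of the family, 6 were measured. *Chad*, which encodes chondroadherin of cartilage, had signals of 8738, 9496, 8105 and 8845, with the *Matn3* mutant the lowest. *Kera*, which encodes keratocan of cornea and tendon, had 204, 410, 101 and 347. Its lowest and highest arrays were those of *Aspn*. *Ecm2* had 575, 642, 575 and 503, *Podn* 109, 118, 152 and 163, *Nyx* 8.40, 18.6, 34.3 and 42.4, and *Optc*, a gene of the eye, was below the median level of genes.

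The collagens that these proteoglycans bind also differed in their order of genotypes. *Col2a1*, whose collagen forms the fibrils of cartilage, had 10187, 13435, 13380 and 13571. *Col1a1*, a collagen of bone and fibrous tissue, had 4591, 7001, 2398 and 4970, and *Col5a2* 5444, 9346, 3545 and 5819, with the same order of arrays as *Aspn*. Of 16 collagen genes, 2 were over 1.5-fold lower and 0 higher in *Matn3* mutant relative to wild type, 5 were higher and 0 lower in XBP1 null relative to wild type, 4 were higher and 0 lower in the double mutant relative to the *Matn3* mutant, and 1 was lower and 0 higher relative to XBP1 null cartilage.

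The sulphated chains of these proteins are built in the Golgi. Of 16 enzymes of chondroitin and dermatan sulphate synthesis, 4 were higher and 2 lower in *Matn3* mutant relative to wild type, beside 21.2% and 19.3% of all genes. In XBP1 null relative to wild type 4 were higher and 1 lower, beside 23.3% and 11.5%. *Chsy3*, a chondroitin synthase, had 389, 839, 944 and 817, and *Chst14*, the dermatan sulphate sulphotransferase, had 200.0, 285, 137 and 278. In the double mutant, 3 were higher and 3 lower relative to the *Matn3* mutant and 2 higher and 2 lower relative to XBP1 null cartilage, with *Ust*, a uronyl sulphotransferase, 2.05-fold higher in the latter. Among the 4 higher in the *Matn3* mutant, 3 were below the median level of genes. Their wild type and *Matn3* mutant signals were 3.44 and 9.74 for *Chst3*, 23.7 and 36.7 for *Chst7*, and 1.63 and 7.05 for *Chst13*. The same 3 were those lower in the double mutant relative to the *Matn3* mutant. The median log2 differences of this list were 0.23, 0.27, 0.26 and 0.19 in the 4 comparisons, beside 0.00, 0.09, 0.15 and 0.00 over all genes.

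Of 8 genes of keratan sulphate synthesis, relative to wild type 1 was higher and 2 lower in *Matn3* mutant and 4 higher and 0 lower in XBP1 null cartilage, 1 was higher and 1 lower in the double mutant relative to the *Matn3* mutant, and 1 was higher and 2 lower relative to XBP1 null cartilage. *Chst5*, a keratan sulphate sulphotransferase, had signals of 108, 215, 67.8 and 147, and *Chst1*, another one, 204, 429, 287 and 215. Of 6 genes of the linker that joins a chain to its core protein, relative to wild type 1 was higher and 2 lower in *Matn3* mutant and 1 higher and 0 lower in XBP1 null cartilage, among them *B3gat3*, which completes the linker, at 1.62-fold lower in the *Matn3* mutant. In the double mutant 1 of the linker genes was higher and 0 lower relative to the *Matn3* mutant, and 1 was lower and 0 higher relative to XBP1 null cartilage. Both times the gene was *Xylt2*, with signals of 7.54, 7.65, 0.388 and 2.65. *B3gnt7* of the keratan sulphate list had 0.917, 0.955, 3.86 and 1.54 and was among its genes counted in 3 of the 4 comparisons. *Xylt2* and *B3gnt7* were below the median level of genes. Of 11 genes of sulphate and sugar nucleotide supply, 1 was higher and 1 lower in *Matn3* mutant relative to wild type, 0 differed by that much in XBP1 null relative to wild type or in the double mutant relative to XBP1 null, and 1 was higher in the double mutant relative to the *Matn3* mutant. That gene was *Slc35b2*, which carries activated sulphate into the Golgi, with 1453, 1156, 869 and 1502.

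Of 13 proteases that process or degrade these proteins and their binding partners, 2 were higher and 1 lower in *Matn3* mutant relative to wild type and 6 higher and 1 lower in XBP1 null relative to wild type. *Bmp1*, which removes the propeptide of biglycan, was 1.53-fold lower in the *Matn3* mutant, and *Mmp14* 2.33-fold higher in XBP1 null cartilage. In the double mutant 0 were higher and 3 lower relative to the *Matn3* mutant, with *Mmp3* 2.80-fold lower, and 1 was higher and 4 lower relative to XBP1 null cartilage. Of 15 ligands and receptors reported for these proteins, relative to wild type 4 were higher and 2 lower in *Matn3* mutant and 6 higher and 1 lower in XBP1 null cartilage, and 1 was higher and 2 lower in the double mutant relative to the *Matn3* mutant and 0 higher and 6 lower relative to XBP1 null. *Tgfb3* was 1.81-fold lower and *Tgfb2* 1.71-fold higher in *Matn3* mutant relative to wild type chondrocytes.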

How the data were processed

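RNA of rib chondrocytes of 4 genotypes was hybridized to 1 whole-genome 3′ expression array each. The deposited values are linear intensities of 45037 probe sets; the authors' methods name Microarray Suite 5 for control hybridizations and PPLR, which draws on probe-level errors not held by these values and was left out. The summarization and scaling of signals were not stated in any source used here. The number of arrays limits the precision.

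Signals under 1 were set to 1 and taken as log2 without further scaling. Probe sets were named by a platform annotation; 34945 name 1 gene, 932 several and 9160 none, and each gene took its brightest probe set, by mean log2. A fold over 1.5, from the authors' methods, was counted in 4 comparisons. An additive model was fitted across all probe sets in limma 3.58.1 (R 4.3.3) with eBayes and an intensity trend, Benjamini-Hochberg adjustment and a threshold of 0.05. Promoters came from RefSeq on GRCm38.p6. Python 3.11.15, numpy 2.4.6 and pandas 2.3.3 made the tables.

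The members, 8 pathway lists and 10 marker lists were chosen with earlier results of these data known; 18 listed genes were not matched and were not analysed here. Named genes are all members, genotype and sex checks, the 2 nearest profiles, and up to 4 genes of a list. The latter had the largest difference in a comparison and lay above the median level of genes. Others were chosen after their values were seen (*Nyx*, *Optc*, *Cenpp*, *Clec3b*, *Pi16*, *Mepe*, *Pecam1*, *Col1a2*, *Col3a1*, *Postn*, *Egr1*, *Chst3*, *Chst7*, *Chst13*, *Xylt2*, *B3gnt7*). Alternatives were median centring, quantile normalization, a floor at the 25th percentile, a pseudocount of 16, the median over probe sets, no probe sets with a cross-hybridization suffix, eBayes without trend, and brighter probe sets only; the other probe set of a gene, the comparison with equally bright genes and marker sums without *Col1a1* were added after the data were seen.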

Additional observations from a re-analysis of the deposited data

Results flagged for a closer look

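The *Matn3* mutation went with a lower signal of *Ogn* with intact *Xbp1* (log2 difference -0.46) and a slightly higher one on the XBP1 null background (0.11), so that the differences on the Xbp1 backgrounds had opposite signs and were 0.57 apart. On the other probe set of *Ogn* both were below 0, at -1.15 and -0.33. *Omd* also had opposite signs, 0.04 and -0.07, which are -0.10 apart, but after quantile normalization both were below 0, at -0.09 and -0.21. Those of *Ogn* then were -0.51 and 0.09. With 1 array per genotype, neither difference was tested.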

How the results depend on the processing

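The median over probe sets gave 3 members over 1.5-fold lower in *Matn3* mutant relative to wild type (*Aspn*, *Ogn* and *Prelp*; 20.1% of all genes were lower under it), and leaving out probe sets with a cross-hybridization suffix gave 2 (*Aspn* and *Prelp*; 19.7% of all genes), in place of 1 (19.3%). All other counts of members over 1.5-fold, in either direction of the 4 comparisons, were as reported under each of the 6 alternatives tried for them. No member probe set passed the additive fit in limma under any of its 6 alternatives. With probe sets at or above the median only, 13 of 22519 passed for the mutation and 0 for XBP1 loss, none of them of a member. There, 7 of the 20 member probe sets had an unadjusted p under 0.05 in limma for the mutation, beside 1870 of all 22519. Under the pseudocount 4 did, beside 4063 of 45037, and without the eBayes trend 1 did, beside 4512. For XBP1 loss the count of members was 2 under each alternative. Of 224 recomputed differences of single members, 218 kept their side of 1.5-fold, 5 passed it and 1 no longer did: *Aspn* in the double mutant relative to XBP1 null, at -0.50 on its other probe set. Small differences were less stable: 17 changed sign, of which 13 under quantile normalization, and the largest of these was 0.29 on the log2 scale as reported, in *Fmod*. Under that suffix rule *Epyc* had no probe set left. With 1 array per genotype no array could be left out, and differences between animals are not measured. No paired analysis was possible because each genotype has 1 array.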
